A study of Mus musculus with 6 samples.

Results

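Hmga1, Hmga2, Lin28b, Igf2bp1, Igf2bp2, Igf2bp3, Igf2, H19 and Dlk1 are genes of fetal growth that most tissues switch down after birth. These 9 members were taken by symbol from the count table of mouse pancreas at postnatal day 7, and all 9 had a row among its 23337 symbols in each of the 6 libraries. Mutant mice carried the Cre allele Ptf1a cre/+ together with the transgene CAG-loxP-STOP-loxP-Prox1-LacZ, whose ubiquitous CAG promoter drives Prox1 and LacZ once Cre has removed a stop. Control mice (Ptf1a cre/+) carried the Cre allele alone, so both groups had a modified Ptf1a allele, and all animals were of strain NMRI. Whole pancreas was sequenced by a TruSeq mRNA protocol, with n = 3 libraries per group. The series' design text calls the controls pools and the mutants individual pancreata, while the extraction protocol speaks of individual organs throughout, so pooling and genotype cannot be told apart.

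In background, HMGA1 and HMGA2 are small chromatin proteins that bind AT-rich DNA through AT-hooks. LIN28B is an RNA-binding protein that blocks the maturation of let-7 microRNAs, and let-7 in turn represses Hmga2, Lin28b and Igf2bp1 through sites in their 3′ UTRs. The IGF2BP proteins bind mRNAs, among them that of Igf2, and alter their stability and translation. Igf2, a growth factor gene expressed from the paternal chromosome, and H19, a long noncoding RNA expressed from the maternal one, share an imprinted region. Dlk1, also paternally expressed, encodes a membrane protein of precursor cells.

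Values are CPM, counts scaled to a common library size, on library sizes scaled by the trimmed mean of M values (TMM), a scaling set by the bulk of genes. Tests are edgeR's quasi-likelihood test with p-values adjusted over the 13017 genes that passed a filter on low counts, with a threshold of 0.05, and fold changes are mutant over control. Total counts lay between 7729161 and 9957737 in mutant libraries and between 7304727 and 10773223 in control libraries, so 1 CPM stood for between 6.65 and 10.5 counts. Prox1 was at 25.5, 31.3 and 30.9 CPM in mutants, against 10.8, 7.84 and 9.13 CPM in controls (log2 fold change 1.67 ± 0.15 SE, edgeR adjusted p = 0.000239). Control 1 stood apart with 7110 counts of Xist and 0 of the Y-linked genes Ddx3y, Uty, Kdm5d and Eif2s3y, against between 1 and 4 counts of Xist and between 1132 and 1463 of those genes in the rest. By these counts control 1 was female and the rest, all mutants among them, were male, so sex was not balanced between the groups. Acinar marker genes summed to between 247375 and 293832 CPM in mutants and between 262754 and 300612 CPM in controls, so the defining markers of the labelled tissue were present in all 6 libraries.

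Of the 9 members, 6 passed the filter and 1 of these, Hmga2, passed the test, where 2.06% of all genes tested did. The filter asks for a set level in 3 libraries of any group, and Hmga2 met it through the controls, where it was higher. It was also called with no filter on low counts (edgeR adjusted p = 0.00345). Mutant and control libraries were apart in 3 of the 6 tested members, Hmga2, Igf2bp2 and H19, and in 19% of all genes tested. The members spanned a wide range of levels. Per kb of annotated exon, H19 averaged 411 ± 7.97 CPM in mutants and 336 ± 23.0 CPM in controls (SD, n = 3 each), and Igf2 averaged 88.1 ± 6.85 and 80.6 ± 6.25 CPM per kb in mutants and controls. Dlk1 followed with 13.3 ± 0.606 CPM per kb in mutants and 13.7 ± 1.91 CPM per kb in controls. Among all symbols, H19 ranked between 32 and 34 by count in mutants and between 42 and 46 in controls, and Igf2 ranked between 55 and 62 in mutants and between 69 and 78 in controls. Both imprinted RNAs were thus among the 100 most counted genes of every library.

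**Figure D1:**
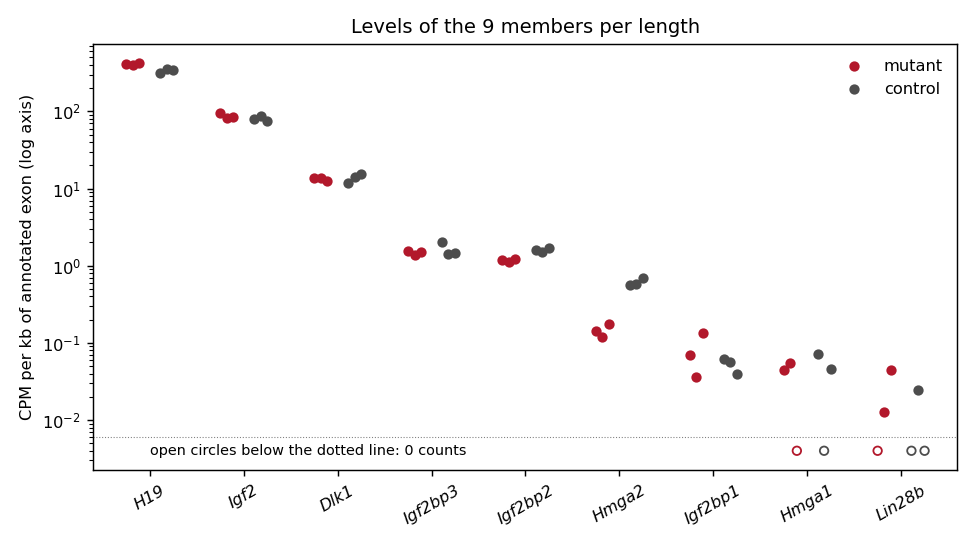
Level of each member in CPM per kb of annotated exon, on a log axis, with 1 filled circle per library (mutant red, control grey) and open circles under the dotted line for libraries with 0 counts. H19 and Igf2 lie far above the rest, and Hmga2 is the member whose groups stand furthest apart.

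Below these 3 the rows of the RNA-binding and chromatin genes were low in counts, which for Hmga1 is not read as low expression. Igf2bp3 was at 1.48 ± 0.0912 CPM per kb in mutants and 1.65 ± 0.346 in controls, and Igf2bp2 at 1.17 ± 0.0539 in mutants and 1.597 ± 0.111 in controls. These neighbours overlapped in controls and did not overlap in mutants, where Igf2bp3 was the higher. Hmga2 averaged 0.146 ± 0.0288 CPM per kb in mutants and 0.607 ± 0.0768 in controls. Igf2bp1 averaged 0.0796 ± 0.0499 and 0.0530 ± 0.0118 CPM per kb in mutants and controls, so that its mutant libraries overlapped those of Hmga2 and its control libraries did not. Hmga1 and Lin28b had means under 0.04 CPM per kb in both groups. Annotated exon length counts every isoform and retained intron, so the order between near neighbours depends on it. It came from GENCODE M21, while the annotation used for counting is not given, so all levels per kb are approximate.

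Hmga1, the AT-hook protein of proliferating cells, was near the limit of detection in these counts. It had 1, 1 and 0 counts in mutants and 1, 0 and 1 counts in controls, or 2 counts per group. The sums are 0.0686 CPM in mutants (exact Poisson 95% interval 0.00831 to 0.248) and 0.0766 CPM in controls (0.00928 to 0.277), and a difference was not detectable at this depth. How reads with several matching places were counted is not given in the sources used here, so a low count in this row is not read as low expression.

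Hmga2, the embryonic AT-hook protein whose loss makes pygmy mice, fell in mutants. It lies on chromosome 10 (GRCm38 120361275 to 120476469, minus strand). It had 10, 7 and 12 counts in mutants, or 0.952, 0.812 and 1.20 CPM, against 25, 35 and 49 counts in controls, or 3.76, 3.87 and 4.71 CPM. All 3 mutant libraries were below all 3 control libraries, which was also so with library totals alone. The mean was 0.987 ± 0.195 CPM in mutants and 4.11 ± 0.520 CPM in controls (SD, n = 3 each), and the fold fitted by edgeR was 4.12-fold lower. Its log2 fold change was -2.04 ± 0.30 (SE, 95% interval -2.70 to -1.39), with an edgeR adjusted p of 0.00569, where 1.51% of genes tested were called lower. The 3 mutant libraries rest on 29 counts in all. In bulk tissue, fewer cells of a type and less RNA per cell cannot be told apart.

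The pseudogene Hmga2-ps1 went the other way. It is a transcribed pseudogene of 1510 bases on chromosome 1 (GRCm38 176834624 to 176836133), inside an intron of Sdccag8, and it was looked at after its values were seen. It had 20, 15 and 17 counts in mutants and 6, 5 and 15 counts in controls. These are 1.90, 1.74 and 1.70 CPM in mutants and 0.902, 0.552 and 1.44 CPM in controls, with no overlap, but it missed the threshold (log2 fold change 0.85 ± 0.39 SE, edgeR adjusted p = 0.399). Its host Sdccag8 averaged 6.37 ± 1.63 CPM in mutants and 5.49 ± 1.59 CPM in controls, and these groups overlapped.

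Hmga2 made up 33.3%, 31.8% and 41.4% of the counts of both rows in mutants, against 80.6%, 87.5% and 76.6% in controls. The sum of the rows was 30, 22 and 29 counts in mutants and 31, 40 and 64 counts in controls. On the CPM scale the sum averaged 2.77 ± 0.187 in mutants and 5.08 ± 0.938 in controls, still without overlap. With the rows added together before the fit, the log2 fold change was -0.88 ± 0.23 (SE) and the call was lost (edgeR adjusted p = 0.107). Whether reads of Hmga2 were assigned to the pseudogene cannot be seen from gene counts. In the annotation, 0.768% of the 50-base stretches of Hmga2 transcripts also occur in Gm38158, the 339-base pseudogene annotated inside the Hmga2-ps1 interval, and 17.9% of those of Gm38158 occur in Hmga2; the rest of the interval was not compared.

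**Figure D2:**
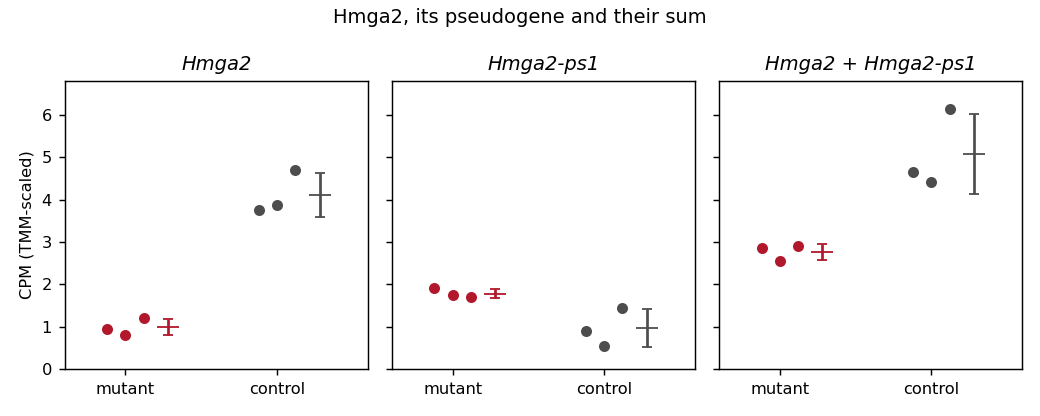
CPM of Hmga2, of its pseudogene Hmga2-ps1 and of their sum in each library (mutant red, left; control grey, right), with the mean and SD beside the points. Hmga2 is lower and Hmga2-ps1 higher in every mutant library than in every control library, and the sum is lower by a smaller margin.

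The genes most like Hmga2 over the 6 libraries, by Pearson's r of log2 CPM among 12936 other genes with a mean of at least 1 CPM, were Trim16 (0.999), 5730559C18Rik (0.997), Fam171a2 (0.997), Gm10336 (0.995) and Arhgap26 (0.995). With 6 points that fall into groups of 3, r mostly reflects the difference between the groups, and 159 genes had an r over 0.95. Arhgap26, a GTPase-activating protein, was at 13.2, 10.1 and 13.9 CPM in mutants, against 52.8, 55.0 and 57.7 CPM in controls (log2 fold change -2.15 ± 0.13 SE, edgeR adjusted p = 2.17e-05). Trim16, a TRIM family ubiquitin ligase, was 2.92-fold lower, at 5.64 ± 0.6004 CPM in mutants and 16.5 ± 1.81 CPM in controls (edgeR adjusted p = 0.000524). 5730559C18Rik, listed under the symbol Inava by RefSeq, was also called lower (edgeR adjusted p = 0.00429). Fam171a2 was at 5.55 ± 0.378 CPM in mutants and 9.15 ± 0.274 CPM in controls, a fall that passed narrowly (edgeR adjusted p = 0.0459) and was lost in 10 of 15 alternatives, among them leaving out any 1 library, with an adjusted p of up to 0.187. Gm10336 was at 6.92 ± 0.237 CPM in mutants and 9.33 ± 0.496 CPM in controls and was not called (edgeR adjusted p = 0.223).

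Lin28b, on chromosome 10, was near the limit of detection. It had 0, 1 and 4 counts in mutants and 0, 2 and 0 counts in controls. The sums of 5 counts in mutants and 2 in controls are 0.172 CPM (exact Poisson 95% interval 0.0557 to 0.400) and 0.0766 CPM (0.00928 to 0.277), intervals that cover counting error only. A difference between the groups was not detectable at this depth. Its relative Lin28a, which acts on let-7 precursors in the cytoplasm, had no more than 0.116 CPM in any library. Each of 11 rows of let-7 hairpins held between 0 and 7 counts in a library, and an mRNA protocol does not measure mature let-7.

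The let-7 family is shown because Hmga2, Lin28b and the Igf2bp genes hold sites for it. Hmga2, Lin28b and Igf2bp1 are known let-7 targets, so matches in them are not a result independent of that knowledge. Of 10 mature let-7 copies in the RefSeq table (GRCm38.p6), with 8 distinct sequences, all share the seed, bases 2 to 8, in capitals.
let-7a-5p: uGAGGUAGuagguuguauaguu
let-7b-5p: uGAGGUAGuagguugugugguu
let-7c-5p: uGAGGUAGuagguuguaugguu
let-7d-5p: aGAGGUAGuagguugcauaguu
let-7e-5p: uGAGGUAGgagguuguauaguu
let-7f-5p: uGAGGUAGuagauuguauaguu
let-7g-5p: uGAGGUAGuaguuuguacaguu
let-7i-5p: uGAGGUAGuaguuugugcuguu

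The complement of this seed, CTACCTC, was searched on the transcribed strand of the longest annotated 3′ UTR of each protein-coding gene in GENCODE M21. It occurred 4 times in each of Hmga2, Lin28b and Igf2bp1, and once each in Hmga1, Igf2bp2 and Igf2bp3, while Igf2 and Dlk1 held no match. Among all 20921 such UTRs, 9.06% held at least 1 match. Among 2891 UTRs within 25% of the 3014 bases of Hmga2, its own included, 15.9% held at least 1 match. At least as many matches as in Hmga2 were held by 4 of them, or 0.138%, with Hmga2 itself among these. The 4 Hmga2 sites and the match nearest the coding sequence in Lin28b and each Igf2bp gene are printed 5′ to 3′, each as 22 bases of which the last faces base 1 of the microRNA, with the seed match in capitals.
Hmga2 (chr10:120364224-120364245, minus strand): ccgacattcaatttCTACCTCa
Hmga2 (chr10:120362987-120363008, minus strand): cccactcctcaataCTACCTCt
Hmga2 (chr10:120362549-120362570, minus strand): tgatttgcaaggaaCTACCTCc
Hmga2 (chr10:120361691-120361712, minus strand): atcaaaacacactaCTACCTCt
Lin28b (chr10:45381022-45381043, minus strand): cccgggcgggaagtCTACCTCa
Igf2bp1 (chr11:95961778-95961799, minus strand): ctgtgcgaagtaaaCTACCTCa
Igf2bp2 (chr16:22059473-22059494, minus strand): cacacaaataaaagCTACCTCa
Igf2bp3 (chr6:49086787-49086808, minus strand): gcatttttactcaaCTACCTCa

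Few genes had as many matches, and this grouping was made after the values were seen. Of 21 tested genes with 3 or more matches, 0 were called higher and 1, Hmga2 itself, was called lower by edgeR, and their median log2 fold change was -0.03. In the 10334 tested genes with no match, 2.15% were called and the median was 0.01. Nr6a1, a nuclear receptor with the most matches of any tested gene, 8, had a log2 fold change of 0.19 ± 0.22 SE and was not called (edgeR adjusted p = 0.804). A match of letters is a description and not a measured site.

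The 3 Igf2bp genes differed in level and in pattern. Igf2bp2, the member of the family most widely expressed in adult tissue, was at 8.85, 8.24 and 8.98 CPM in mutants, against 11.7, 11.0 and 12.7 CPM in controls. Every mutant library was below every control library, where 9.86% of genes tested had mutants lowest without overlap. The log2 fold change was -0.44 ± 0.13 (SE, 95% interval -0.74 to -0.14), and it missed the threshold once adjusted (edgeR adjusted p = 0.171, unadjusted 0.00824). Igf2bp2 lies on chromosome 16 and shares no 50-base stretch with another annotated gene.

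Igf2bp3, on chromosome 6, was at 12.7, 11.3 and 12.4 CPM in mutants and 16.7, 11.6 and 12.01 CPM in controls. Control 1 alone was high, and the other 5 libraries lay together. The log2 fold change was -0.13 ± 0.16 (SE, 95% interval -0.50 to 0.23, edgeR adjusted p = 0.812), turning to 0.04 without control 1 and to 0.03 with library totals alone. Exons of Malsu1 on the opposite strand cover 18.7% of its exon bases, and reads of the pair cannot be told apart where the strand setting is unknown. The count ratio of Igf2bp3 to Igf2bp2 was 1.39 ± 0.0341 in mutants and 1.14 ± 0.250 in controls (SD, n = 3 each; two-sided exact permutation p = 0.3, where 0.1 is the smallest that 3 against 3 allow).

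Igf2bp1, on chromosome 11, had 7, 3 and 13 counts in mutants and 4, 5 and 4 counts in controls and was too low to be tested. The sum of 23 counts in mutants is 0.789 CPM (exact Poisson 95% interval 0.500 to 1.18) and that of 13 counts in controls is 0.498 CPM (0.265 to 0.852). The groups overlapped, and mutant 3 held 13 of the 23 mutant counts, so no difference was detectable at this depth. With no filter on low counts the log2 fold change was 0.62 ± 0.62 (SE, edgeR adjusted p = 0.770).

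**Figure D3:**
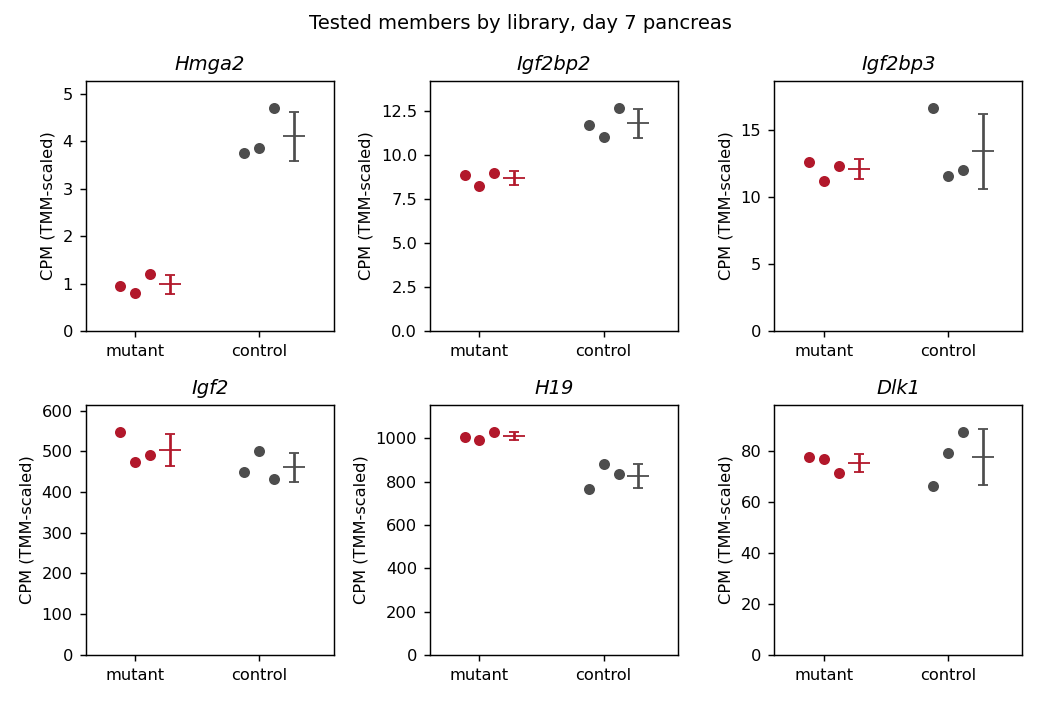
CPM of the 6 tested members in each library, with mutants (red) left of controls (grey) and the mean and SD beside the points; each panel starts at 0. Groups are apart in Hmga2, Igf2bp2 and H19 and overlap in Igf2bp3, Igf2 and Dlk1.

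Igf2, on chromosome 7 (GRCm38 142650766 to 142666816, minus strand), was at 549, 474 and 490 CPM in mutants and 449, 501 and 433 CPM in controls. With TMM the groups overlapped, with mutant 1 highest and control 3 lowest, while with library totals alone every mutant library was above every control library. The log2 fold change was 0.13 ± 0.12 (SE, edgeR adjusted p = 0.738), and its 95% interval of -0.14 to 0.40 leaves room for a difference of up to that size. It was 0.30 with library totals alone (edgeR adjusted p = 0.196) and 0.06 without mutant 1 (edgeR adjusted p = 0.917). Igf2 shares 61.2% of its 50-base stretches with Gm49394, an annotated gene that overlaps it on the same strand. The annotation used for counting is not given, so it cannot be told whether the Igf2 row holds the reads of these stretches. The level of Igf2 per kb and its ratio to H19 carry the same limit.

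H19, on the same chromosome (GRCm38 142575529 to 142578143, minus strand), was at 1006, 992 and 1031 CPM in mutants, against 767, 880 and 834 CPM in controls. Every mutant library was above every control library, where 9.13% of genes tested had mutants highest without overlap. The mean was 1010 ± 19.6 CPM in mutants and 827 ± 56.5 CPM in controls (SD, n = 3 each). The log2 fold change of 0.29 ± 0.12 (SE, 95% interval 0.03 to 0.55) missed the threshold (edgeR adjusted p = 0.334, unadjusted 0.0342), and it missed it by DESeq2 as well (adjusted p = 0.0631). The count ratio of H19 to Igf2 was 1.83, 2.09 and 2.10 in mutants and 1.71, 1.75 and 1.93 in controls. These overlapped, and the difference of 0.214 gave a two-sided exact permutation p = 0.2.

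Dlk1, on chromosome 12, was at 77.8, 76.7 and 71.4 CPM in mutants and 66.2, 79.2 and 87.7 CPM in controls. Controls were spread on both sides of the mutants. The log2 fold change was -0.05 ± 0.12 (SE, 95% interval -0.30 to 0.21, edgeR adjusted p = 0.920), turning to 0.12 with library totals alone and to 0.05 without control 3.

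**Figure D4:**
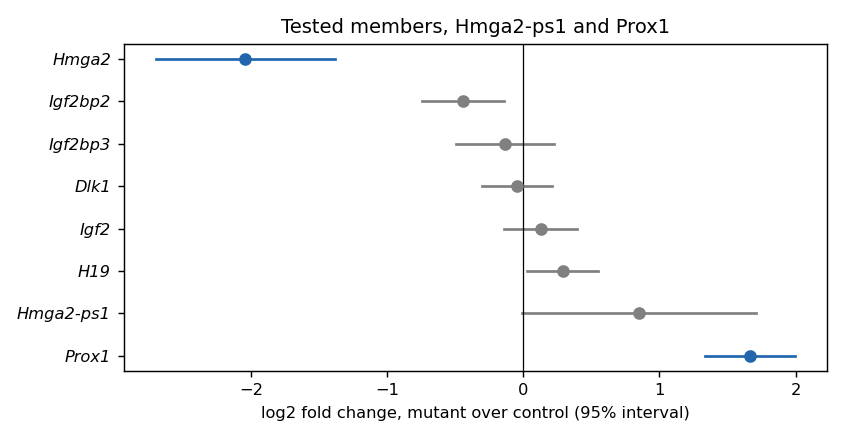
Log2 fold change (mutant over control) with its 95% interval for the 6 tested members, Hmga2-ps1 and Prox1; blue marks genes past the adjusted threshold. Hmga2 lies at -2.04, the other members lie between -0.44 and 0.29, and Prox1 lies at 1.67.

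Library totals alone, in place of TMM, moved the median of all genes tested to 0.17 on the log2 scale, against 0.00 with TMM, and the values of the members moved with it. Genes most like Igf2 over the 6 libraries were Il28ra (r = 0.992), an interferon receptor chain, Shc4 (0.988), an adaptor protein, Cyb5r1 (0.986), a reductase, Ube2c (0.980), a ubiquitin-conjugating enzyme of mitosis, and Fanci (0.979), a DNA repair protein. None of these 5 passed the edgeR test, at adjusted p between 0.388 and 0.851, while 1 of them, Cyb5r1, had an unadjusted p under 0.05 (0.0491); DESeq2 also called none.

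Over 6 lists of other genes in the same pathways, 4 of 99 distinct genes tested were called, or 4.04%, against 2.06% of all genes tested, whose median log2 fold change was 0.00. Igf1r stands in both the let-7 target and the IGF list. As a background for counts under 0.05, Cyb5r1 at an unadjusted edgeR p of 0.0491 ranked 1645 by p among all 13017 genes tested. Of 13 genes of the Lin28 and let-7 machinery, 10 had a row under the symbol searched, while Ago1, Ago2 and Mirlet7bhg had none. Of this list 8 genes were tested and 0 were called by edgeR or DESeq2, with 0 at an unadjusted p under 0.05 and a median of -0.02. Dicer1, which cuts microRNA precursors, was the most abundant gene with a row. It was at 47.6, 52.4 and 56.7 CPM in mutants and 50.4, 48.4 and 52.4 CPM in controls. Of 20 further let-7 targets, all tested, 0 were called by edgeR or DESeq2 and 5 had an unadjusted edgeR p under 0.05, with a median of -0.01. Ccnd2, a cyclin and the most abundant of them, had 112, 102 and 116.5 CPM in mutants and 95.03, 102 and 106 CPM in controls.

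In the IGF system, 18 of 21 genes were tested, 0 were called by edgeR and 1, Igf1, by DESeq2, with 2 at an unadjusted edgeR p under 0.05 and a median of -0.03, which was -0.17 without control 1. The most abundant, Igfbp5, a binding protein that holds IGFs in the matrix, was at 293, 181 and 182 CPM in mutants and 132, 229 and 368 CPM in controls, with control 1 lowest and control 3 highest. The pair under 0.05, Igf1 and the receptor gene Igf1r, were named after their values were seen. Igf1, the growth factor that takes over from Igf2 after birth, was at 148, 185 and 156 CPM in mutants, against 251, 195 and 230 CPM in controls (log2 fold change -0.47 ± 0.13 SE, edgeR adjusted p = 0.130). Igf1r, through which both factors signal, was at 18.6, 22.05 and 20.1 CPM in mutants, against 29.6, 25.96 and 30.5 CPM in controls (-0.51 ± 0.11 SE, edgeR adjusted p = 0.0590), and it was called when mutant 2 was left out and with robust dispersion. With TMM neither gene's groups overlapped, but with library totals alone those of Igf1 did.

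Of 31 other imprinted genes, 26 were tested, of which 1 rose and 1 fell, with a median of 0.02; DESeq2 called the same pair, and 6 had an unadjusted edgeR p under 0.05. Ddc, the enzyme that makes dopamine and serotonin and is known as imprinted in heart, fell to 28.1, 27.96 and 43.6 CPM in mutants, against 105, 95.6 and 99.2 CPM in controls (log2 fold change -1.59 ± 0.16 SE, edgeR adjusted p = 0.000649). Zim1, a zinc finger gene expressed from the maternal chromosome, rose to 72.2, 63.2 and 70.1 CPM in mutants, against 45.1, 48.8 and 53.0 CPM in controls (0.48 ± 0.10 SE, edgeR adjusted p = 0.0424). The call of Zim1 was lost in 6 of 15 alternatives, namely the replicate block and leaving out any 1 library except mutant 2, with an edgeR adjusted p of up to 0.195. Of 10 other HMG genes, all tested, 0 were called by edgeR or DESeq2 and 1 had an unadjusted edgeR p under 0.05, with a median of -0.00. Ssrp1, a histone chaperone subunit, was at 107, 99.2 and 97.3 CPM in mutants and 107, 108 and 98.0 CPM in controls. Hmgn2 held between 7 and 21 counts in a library and Hmgb2 between 6 and 80. How reads with several matching places were counted is not given, so low counts in these rows are not read as low expression.

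Of 21 other fetal tissue genes, 18 were tested, of which 1 rose and 1 fell, with a median of 0.21. DESeq2 called 3, adding Bex2 to this pair, and 7 had an unadjusted edgeR p under 0.05. In 8 of the 18 mutants and controls were apart, against 19% of all genes tested. Nes, an intermediate filament gene of progenitor cells, fell to 13.1, 12.1 and 11.0 CPM in mutants, against 21.95, 36.7 and 30.6 CPM in controls (log2 fold change -1.31 ± 0.18 SE, edgeR adjusted p = 0.00429). Ptn, the heparin-binding growth factor pleiotrophin, rose to 97.3, 84.8 and 94.3 CPM in mutants, against 68.7, 65.2 and 66.0 CPM in controls (0.47 ± 0.09 SE, edgeR adjusted p = 0.0335). The call of Ptn was lost in the same 6 alternatives as that of Zim1, with an edgeR adjusted p of up to 0.190. The median of this list was 0.38 with library totals alone.

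**Figure D5:**
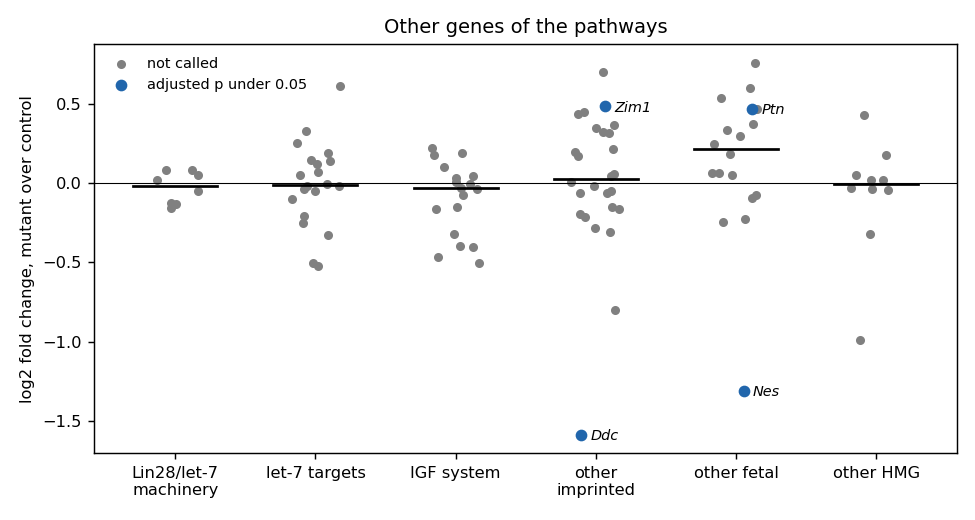
Log2 fold change (mutant over control) of each tested gene in the 6 pathway lists, with a bar at the list median; blue points passed the adjusted threshold. Ddc and Nes lie lowest at -1.59 and -1.31, and Zim1 and Ptn, also called, lie at 0.48 and 0.47.

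Markers of the cell types that whole pancreas holds were summed per library. Of all 13017 genes tested, edgeR called 2.06%, and Cyb5r1 at an unadjusted edgeR p of 0.0491 ranked 1645 by p. Duct markers, of which 0 of 8 were called by edgeR, 2 by DESeq2 and 5 had an unadjusted edgeR p under 0.05, summed to between 520 and 736 CPM in mutants and between 743 and 837 CPM in controls, without overlap. The members of this list did not share 1 direction. Spp1, a secreted phosphoprotein and the most abundant, was at 269.7 ± 32.5 CPM in mutants and 369 ± 22.8 CPM in controls (edgeR adjusted p = 0.119), Epcam, an epithelial adhesion molecule, at 125 ± 23.8 CPM in mutants and 126 ± 7.83 CPM in controls (edgeR adjusted p = 0.994), and Cftr, the chloride channel, at 5.33 ± 1.01 CPM in mutants and 3.09 ± 1.06 CPM in controls (edgeR adjusted p = 0.264). Sums of macrophage markers, with 2 of 9 called higher and 1 lower by edgeR, 3 called by DESeq2 and 6 at an unadjusted edgeR p under 0.05, lay between 299.7 and 401 CPM in mutants and between 243 and 298.9 CPM in controls. Fibroblast and stellate markers, of which 0 of 16 were called by edgeR, 1 by DESeq2 and 2 at an unadjusted edgeR p under 0.05, summed to between 5293 and 6792 CPM in mutants and between 4672 and 7187 CPM in controls. Proliferation markers, with 0 of 17 called by edgeR or DESeq2 and 2 at an unadjusted edgeR p under 0.05, summed to between 592 and 830 CPM in mutants and between 601 and 795 CPM in controls. No marker of these 4 lists was at 0 in all libraries, and their part in the results was not tested.

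Of 7 adipocyte markers tested, 0 rose and 2, Fabp4 and Lgals12, fell by edgeR and 5 had an unadjusted edgeR p under 0.05, with a median log2 fold change of -1.17. DESeq2 called 3, these and Retn, which the filter on low counts had left out of the edgeR test. Of all genes tested, edgeR called 1.51% lower. Lgals12, a galectin of fat cells, fell to 11.2 ± 1.45 CPM in mutants, against 25.4 ± 2.93 CPM in controls (edgeR adjusted p = 0.002). Adipoq, the hormone adiponectin of fat cells, had 0, 21 and 0 counts in mutants and 20, 91 and 152 counts in controls (edgeR adjusted p = 0.0855). Within the groups Lgals12 did not follow Adipoq. Among controls Lgals12 was highest in control 1, at 27.97 CPM, where Adipoq was lowest. In mutants 1 and 3, where Adipoq had 0 counts, Lgals12 had 135 and 107 counts. The summed level, led by Lpl at 201 ± 35.9 CPM in mutants and 183 ± 17.7 CPM in controls, lay between 231 and 289.9 CPM in mutants and between 266 and 361 CPM in controls. The part of these markers in the fall of Hmga2 was not tested. Endocrine markers summed to between 3345 and 3654 CPM in mutants and between 3287 and 5318 CPM in controls, with control 1 highest. Erythroid markers summed to between 15.996 and 39.1 CPM in mutants and between 22.3 and 163 CPM in controls, with Hba-a1 and Hba-a2 at 0 in all libraries. How reads with several matching places were counted is not given, so these rows at 0 are not read as absent expression. Lymphocyte markers summed to between 5.99 and 86.3 CPM in mutants and between 7.37 and 26.7 CPM in controls, with mutant 2 highest. Blood endothelial markers summed to between 296 and 321 CPM in mutants and between 292 and 312 CPM in controls, and nerve and Schwann cell markers to between 12.5 and 19.96 CPM in mutants and between 12.9 and 15.6 CPM in controls. Of the acinar, endocrine, erythroid, lymphocyte, endothelial and nerve lists edgeR called 0, and DESeq2 called 2 acinar markers. At an unadjusted edgeR p under 0.05 were 3 of 10, 2 of 13, 4 of 4, 0 of 5, 0 of 10 and 0 of 5 tested markers, in that order. The part of these markers in the results was not tested.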

How the data were processed

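The authors deposited whole-number counts per gene symbol, 1 file per library. The build mm10 and the tools HTSeq 0.6.1p1, STAR, DESeq2 and cutadapt 1.13 stand in the submitters' processing notes, without role or order. For the annotation, the strand setting and reads with several matches, nothing is given in the sources used here. Groups and replicate numbers came from the sample titles. Counts were tested in edgeR 4.0.16 (R 4.3.3) by glmQLFit and glmQLFTest (TMM, filterByExpr, no covariate, Benjamini-Hochberg over 13017 genes), with log2 CPM at a prior count of 2 for correlations. A standard error is the size of the log2 fold change over the root of its F statistic. Alternatives were library totals, relative log expression and upper quartile scaling, other filters, robust dispersion, a replicate block, DESeq2 1.42.0 and leaving out each library. The fit was tested on simulated data. Single ratios were compared by exact permutation tests. Libraries within a group differed by a chi-square of between 5.83 and 20.5 per degree of freedom, so all 6 were kept; nothing ties them to litters, and p-values measure the spread between these samples, which may be technical.

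Coordinates, exon lengths and 3′ UTRs came from GENCODE M21 (GRCm38, the assembly of mm10), in which all 9 members matched by symbol. The members and lists were chosen with earlier results of these data known. Named were the members, Prox1, up to 3 called genes per pathway list or else its most abundant gene, and the 5 genes most like Hmga2 and like Igf2; others were chosen after their values were seen.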

Additional observations from a re-analysis of the deposited data

How the results depend on the processing

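Hmga2 stayed lower in all 15 alternatives and passed the test in 14, with a log2 fold change between -2.20 and -0.88 and an adjusted p between 0.0013 (DESeq2) and 0.107. The exception, chosen after seeing the data, added the counts of Hmga2-ps1 to Hmga2: the log2 fold change was then -0.88 and 0 members passed edgeR, with 3 at an unadjusted p under 0.05; the cause was not tested. When 1 library was left out at a time, Hmga2 kept an edgeR adjusted p of up to 0.0426 and the number of members called was 1 each time. No other member passed in any alternative. Signs turned for Igf2bp3 and Dlk1. Igf2bp3 was at 0.0316 with library totals alone, and between -0.229 (without control 2) and 0.0365 (without control 1) when 1 library was left out. Dlk1 was at 0.118 with library totals alone, and between -0.149 (without control 1) and 0.0481 (without control 3) when 1 library was left out.

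All genes called numbered 268 (71 higher, 197 lower), 190 higher and 130 lower with library totals alone, and between 125 and 301 when 1 library was left out (139 without mutant 1, 178 without mutant 3, 125 without control 2 and 140 without control 3). Of the pathway lists 4 genes were called, 8 with library totals alone, 2 with the replicate block, and between 2 and 7 when 1 library was left out. The replicate numbers showed no sign of pairing the samples: deviations of same-numbered libraries correlated at 0.08, 0.03 and -0.07, and not every library correlated best with its own number. With so few libraries per group, such correlations cannot exclude a pairing. With the replicate block 241 genes were called and Hmga2 had an edgeR adjusted p of 0.0136. Depth limits Lin28b and Igf2bp1 most: 3 counts, the limit that a count of 0 allows, are between 0.286 and 0.451 CPM. For Hmga1, how reads with several matching places were counted is unknown as well, so its row may be limited by more than depth.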
